A study of Mus musculus with 2 samples.

Results

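The high mobility group (HMG) chromatin genes examined here are the 9 mouse genes Hmga1, Hmga2, Hmgb1, Hmgb2, Hmgb3, Hmgn1, Hmgn2, Hmgn3 and Hmgn5, out of 43346 gene rows in the deposited tables. They were chosen by symbol, through the gene ID and the GENCODE annotation, and all 9 were found in both tables. The material was forebrain of mouse embryos (strain B6NCrl, both sexes pooled, healthy, no treatment) at embryonic day 11.5, in one group of 2 libraries. The pools held 109 embryos (replicate 1) and 88 embryos (replicate 2). By a SmartSeq protocol, each library was built from a single-cell amount of tissue RNA, so the samples are bulk despite the assay's title. Gene rows held 27395002 expected counts (estimated reads per gene) in replicate 1 and 27977544 in replicate 2. With one group and 1 library per pool there is no comparison of conditions and no p-value, and a difference between the libraries has no replicate check. In such bulk samples, fewer cells of a type and less RNA per cell cannot be told apart.

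HMG proteins are small, abundant non-histone proteins of chromatin, in 3 structurally unrelated families. HMGA proteins hold AT-hooks, short motifs that grip the minor groove of AT-rich DNA. HMGB proteins carry HMG boxes, which bend DNA, and HMGN proteins bind the nucleosome core and loosen compact chromatin, in part by competing with linker histone H1. Several of the family are known for high expression in embryonic and dividing cells, and Hmga2 for its role in self-renewal of young neural stem cells, where the let-7 microRNAs limit it.

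As a check of the tissue, the forebrain regulators Lhx2, Emx2 and Otx2 reached 1 TPM in both libraries, TPM being transcripts per 1000000 transcripts. Among these Emx2 and Otx2 were more than 2-fold lower in replicate 2. All 6 neural progenitor genes and all 5 genes of dividing cells listed passed as well, and En1, En2 and Gbx2 of the mid- and hindbrain had 0 counts in both. Summed over the list, genes of dividing cells were at 1538 and 1512 TPM, those of neural progenitors at 1334 and 2496, and those of young neurons at 793 and 687. Single genes within a list went both ways. Of the 6 progenitor genes, 4 were higher in replicate 2 and 2 in replicate 1, with Fabp7 and Hes5 more than 2-fold higher in replicate 2 and Pax6 more than 2-fold lower. Of the 4 young neuron genes whose mean reached 10 TPM, 2 were higher in each library. Among these Dcx was more than 2-fold higher in replicate 2, at 16.1 and 95.6 TPM. Elavl3, with a mean of 9.83 TPM, went the other way, at 17.4 and 2.30 TPM. Blood contributed, with 19729 and 24128 TPM over its 4 listed genes. In which cells the HMG genes were expressed was not tested.

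All 9 HMG genes were detected, which here means 1 TPM or more in each library. Over all gene rows that share was 16.6%, and over protein-coding rows 30.4%. Together the 9 genes summed to 9306 TPM in replicate 1 and 8398 in replicate 2, a mean of 8852 ± 642 (SD, n = 2). They held 1.05% of gene counts in replicate 1 (95% Clopper-Pearson interval 1.044 to 1.052) and 0.890% in replicate 2 (0.8866 to 0.8936), intervals that cover counting error only. The HMGN genes made up 55.4% and 51.5% of the family's TPM, the HMGB genes 38.0% and 43.5%, and the HMGA genes 6.63% and 4.93%. With the pseudogene rows described below added, a step chosen after the values were seen, HMGB genes summed higher in TPM than HMGN genes in both libraries. In expected counts with the rows added, HMGB genes were higher in replicate 2 only, and HMGN genes stayed higher in replicate 1.

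**Figure D1:**
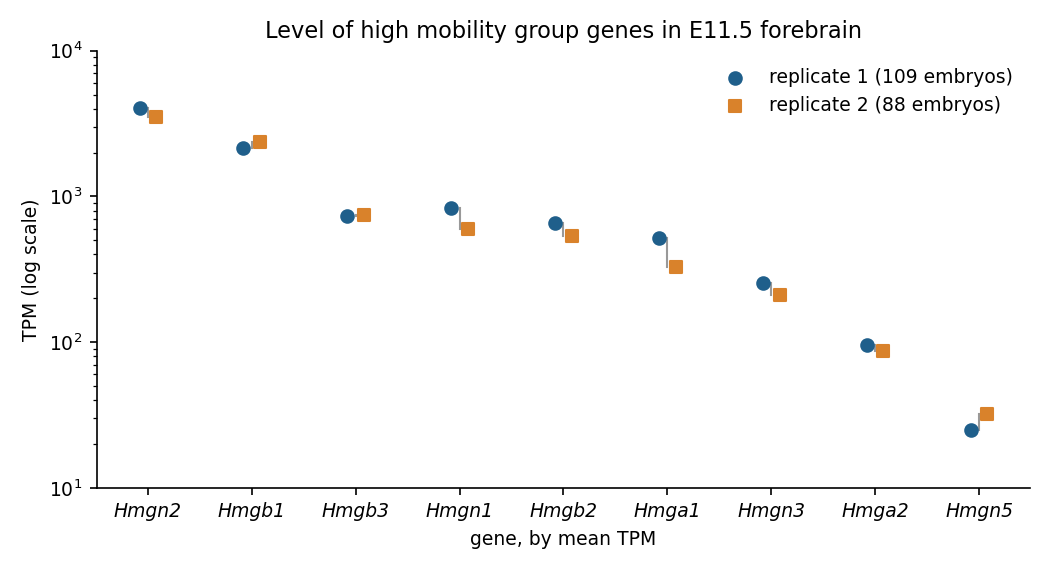
TPM (log axis) of the 9 genes, ordered by mean level, with 1 circle for replicate 1 and 1 square for replicate 2 joined by a line. Levels run from 4039 and 3483 TPM for Hmgn2 down to 25.0 and 31.9 TPM for Hmgn5.

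Hmgn2, which encodes a ubiquitous nucleosome-binding HMGN protein, was the highest of the 9 at 4039 TPM in replicate 1 and 3483 in replicate 2. It ranked 16 and 21 among all gene rows, from 104984 and 88501 expected counts. The gene lies on chromosome 4 from 133964738 to 133968650, minus strand (coordinates here are mm10, GENCODE release M21). Its paralogue Hmgn1, on chromosome 16 from 96120618 to 96127729, was at 835 and 600 TPM, so Hmgn2 exceeded it 4.83-fold and 5.80-fold within a library. Hmgn3, on chromosome 9 from 83109948 to 83146685, was at 256 and 212 TPM. Hmgn5, an X-linked member whose protein has a long acidic tail and binds linker histone, was the lowest of the 9 at 25.0 and 31.9 TPM from 1026 and 1298 counts. The 4 HMGN genes thus stood in the same order in both libraries, with Hmgn2 at 162 and 109 times the TPM of Hmgn5.

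Hmgb1, an architectural HMG-box protein that bends DNA and, once released from cells, acts as a danger signal, was at 2138 and 2378 TPM. It lies on chromosome 5 from 149046702 to 149184489 and ranked 44 and 38 among all gene rows. Hmgb3 (chromosome X, 71555918 to 71560676) was at 736 and 747 TPM, or 742 ± 7.64 (SD, n = 2), the closest pair in the family on the log2 scale. Hmgb2 (chromosome 8, 57511907 to 57515999), known for high expression in proliferating cells, was at 660 and 532 TPM. Hmgb1 exceeded Hmgb2 by 3.24-fold and 4.47-fold in TPM, and Hmgb3 by 2.90-fold and 3.18-fold. These ratios are of gene totals. The Hmgb1 transcripts with its whole coding part, described below, were at 749 and 721 TPM, near the total of Hmgb3.

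The HMGA genes were lower. Hmga1, on chromosome 17 from 27556497 to 27563674, was at 522 and 327 TPM from 17565 and 10726 counts. Hmga2, on chromosome 10 from 120361275 to 120476469, was at 94.9 and 87.3 TPM from 7665 and 6995 counts. Hmga1 was therefore 5.50 and 3.74 times as high as Hmga2 within a library. Ordered by mean TPM, the 9 genes ran Hmgn2, Hmgb1, Hmgb3, Hmgn1, Hmgb2, Hmga1, Hmgn3, Hmga2, Hmgn5. The values of Hmgb3 and Hmgn1 overlapped between libraries, as did those of Hmgn1 and Hmgb2. No other neighbours in that order overlapped.

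None of the 9 genes differed 2-fold between the libraries, that is by at least 1 in log2(TPM + 1). Of the 7680 genes whose mean was 10 TPM or more, 51.3% did. Much of that contrast goes with level, since the share was 65.0% from 10 to 50 TPM, 37.5% from 50 to 200, 14.7% from 200 to 500, 3.12% from 500 to 1000 and 0% above. Read against genes of like level, the HMG genes fell on both sides of the median. Hmgn5 differed by 0.34 in log2(TPM + 1), where the median absolute difference of genes at 10 to 50 TPM was 1.68. Hmga2 differed by 0.12, against 0.73 at 50 to 200 TPM. Hmga1 had the widest gap of the family, at -0.68 (replicate 2 minus replicate 1), against 0.42 at 200 to 500 TPM. Hmgn1 at -0.48 and Hmgb2 at -0.31 were also beyond the 0.30 of their range of 500 to 1000 TPM, while Hmgb3 at 0.02 was inside it. In all, 5 of the 9 lay below the median of their range and 4 above.

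**Figure D2:**
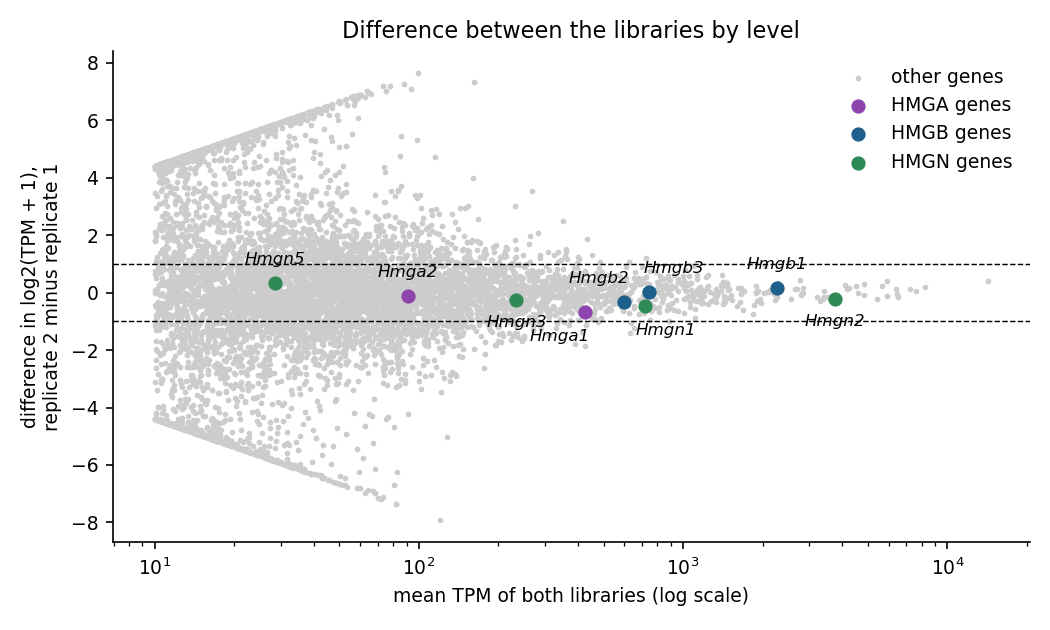
Difference in log2(TPM + 1), replicate 2 minus replicate 1, against mean TPM (log axis) for 7680 genes (mean of 10 or more), with the HMG genes in colour and dashed lines at a 2-fold difference. The spread narrows to the right, and all 9 HMG genes lie between the lines, from -0.68 for Hmga1 to 0.34 for Hmgn5.

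The median difference over the 9 was -0.21, with 6 higher in replicate 1, against 0.02 and 49.4% over the 7680 genes above. Hmga1, Hmga2, Hmgb2, Hmgn1, Hmgn2 and Hmgn3 were higher in replicate 1 and Hmgb1 and Hmgn5 in replicate 2 under each of 6 other scalings or pseudocounts, while Hmgb3 changed sign, from -0.05 to 0.02. The difference of Hmgn5 turned to -0.13 when the TPM of its pseudogene copies, described below, was added, while its counts with theirs added stayed higher in replicate 2. The intervals deposited with the tables, whose confidence level is not stated and which do not cover the spread between libraries, were 502 to 518 TPM for Hmga1 in replicate 1 and 312 to 325 in replicate 2. They are centred on a posterior mean that lies slightly under the TPM given here, so a TPM can fall outside its own interval.

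The transcripts add a second layer. Of the 7 members with more than 1 annotated transcript, 6 had the same leading transcript (the one with the largest share of the gene's TPM) in both libraries. That share was 65.6% over 4352 genes with 2 or more transcripts and at least 5 TPM in both. Among protein-coding transcripts alone it was 5 of 7 members and 75.5% of genes, so the members did not stand above the background on that choice. Hmga2-201 held 99.9% and 99.6% of Hmga2, Hmgn2-203 98.9% and 95.9% of Hmgn2, and Hmgn1-201 95.9% and 92.1% of Hmgn1. Hmgb2 and Hmgn5 each have a single annotated transcript. The remaining members, Hmga1, Hmgb1, Hmgb3 and Hmgn3, were split.

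Hmga1 is known to make 2 main proteins, HMGA1a and the shorter HMGA1b, which lacks a stretch beside an AT-hook. In the annotation the difference is a 33-base coding segment at chr17:27559671-27559703 (plus strand), the end of a coding exon whose splice site varies. It begins at base 103 of the coding part of Hmga1-203. Hmga1-201 lacks it and has 3 coding bases further on that Hmga1-203 lacks. It is shown because the 2 sets of transcripts are told apart by it, in capitals, with 18 bases of coding sequence on each side from GENCODE.
Hmga1-203: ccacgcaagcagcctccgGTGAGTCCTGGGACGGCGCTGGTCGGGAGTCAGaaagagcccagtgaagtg

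Transcripts of Hmga1 with this segment were at 412 and 231 TPM, which is 78.9% and 70.8% of the gene. Those without it were at 110 and 95.4 TPM, or 21.1% and 29.2%. The form with the segment was the larger in both libraries, and the gap of Hmga1 between the libraries lay mostly in it. The leading transcript, Hmga1-203, held 75.5% and 64.0%, and Hmga1-201, without the segment, 21.1% and 29.2%. The deposited lengths of these transcripts differ from those of release M21, so the coding parts given are those of the later release.

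Hmgn3 is known for 2 protein forms too, the longer HMGN3a and HMGN3b, which lacks most of the C-terminal regulatory part. Hmgn3-202 has a coding part of 297 bases and Hmgn3-201 one of 231. The former holds 41 further bases, at chr9:83110993-83111033 on the minus strand, at the end of a shared exon, and its coding part runs 25 bases further in the last exon, at chr9:83110394-83110418. The 41 bases are shown in capitals with 18 coding bases on each side.
Hmgn3-202: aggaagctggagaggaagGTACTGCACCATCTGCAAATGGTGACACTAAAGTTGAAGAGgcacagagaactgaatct

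The long form Hmgn3-202 was at 93.0 and 30.2 TPM, and the short form Hmgn3-201 at 90.7 and 116 TPM. They were near equal in replicate 1, at 36.4% and 35.5% of the gene, while in replicate 2 the long form held 14.2% and the short 54.6%. Hmgn3 was the member whose leading transcript changed between libraries. Hmgn3-203, whose coding part of 285 bases runs 24 bases past these 41 and then ends, held 15.1% and 20.2%. The retained-intron transcript Hmgn3-208 held 13.0% and 10.3%.

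Hmgb1 had the most divided transcript set. A short retained-intron transcript of 654 bases, Hmgb1-206, led in both libraries with 39.9% and 37.9% of the gene's TPM. Retained-intron transcripts in all held 51.8% and 49.9% of TPM but 25.5% and 23.9% of the gene's counts, since TPM weights short transcripts more. Among transcripts with the whole coding part of 645 bases, Hmgb1-201, with 2035 bases of 3′ untranslated region, went from 287 to 538 TPM and from 35.2% to 58.3% of the counts. Hmgb1-203, with 509 such bases, went from 462 to 183 TPM and from 33.5% to 11.7% of the counts. In TPM the long and the short form thus traded places between libraries, while by count the long form was the larger in both. All transcripts with the whole coding part together held 68.7% and 70.0% of the counts. In TPM they were at 749 and 721, or 35.0% and 30.3% of the gene. Hmgb1-204, a retained-intron transcript, held 11.4% and 12.1% of TPM, and the partial transcript Hmgb1-207 held 9.57% and 19.8%.

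Hmgb3 had 4 transcripts with a coding part of 600 bases and 872 bases of 3′ untranslated region, so they differ upstream of the start codon. Hmgb3-202 held 43.4% and 69.9% of the gene and Hmgb3-204 37.0% and 29.3%. Hmgb3-201 was at 71.9 TPM in replicate 1 and at 0 in replicate 2, and Hmgb3-203 at 61.5 and 1.49 TPM. The gene total of Hmgb3 thus differed least of the 9 on the log2 scale while its transcript shares moved.

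**Figure D3:**
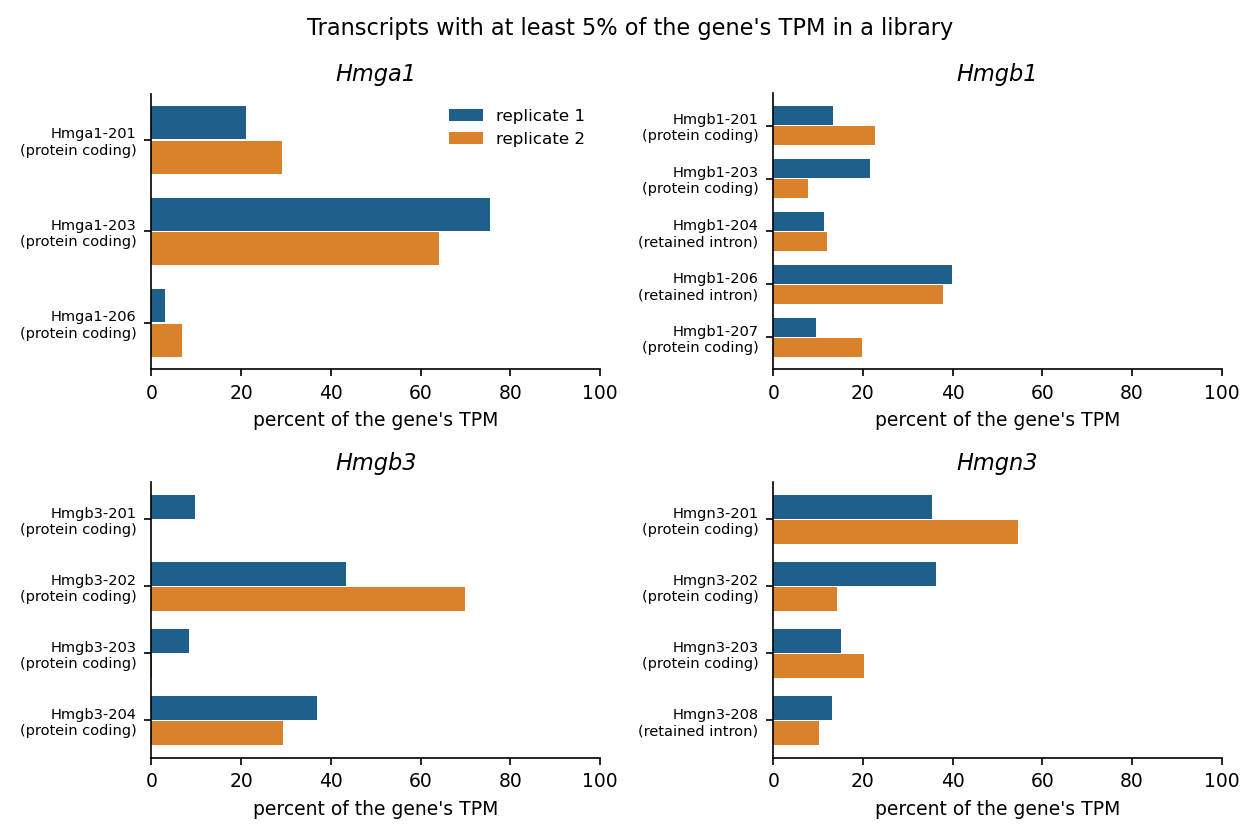
Percent of the gene's TPM on each transcript with at least 5% in a library, for the 4 members with a divided transcript set, as 1 bar per library. Hmga1-203 leads Hmga1 at 75.5% and 64.0%, Hmgb1-206 leads Hmgb1 at 39.9% and 37.9%, and the leading transcript of Hmgn3 changes between libraries.

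HMG genes have left many processed pseudogenes, copies of their messenger RNA inserted into the genome, and some of these hold reads in the deposited tables. By alignment over at least 80% of the pseudogene at 80% identity or more, 122 pseudogene rows resembled a member. Of these, 71 resembled Hmgb1, 18 Hmgn2, 12 Hmgb3, 9 Hmgb2, 8 Hmgn1, 3 Hmgn5 and 1 Hmga2, and none Hmga1 or Hmgn3. Both libraries had 0 counts at 60 of the 122 rows. The rows summed to 30688 and 31026 counts, and those like Hmgb1 held 27869 and 28416 of them.

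Most of those counts fell to 1 row. Gm15387 (ENSMUSG00000082585.3, chromosome 15, 74093686 to 74094333, minus strand) had 22972 and 23040 counts and 1870 and 1892 TPM, against 50053 and 56076 counts for Hmgb1 itself. Over its 648 bases, the length of the Hmgb1 coding part with its stop codon, it differs from Hmgb1-201 at 1 base. This is A21G, where the first letter is the base of Hmgb1 and positions count from 1 at the first base of the start codon. The first 51 bases of each are shown with that base in capitals, as chr5:149050687-149050737 and chr15:74094283-74094333, both on the minus strand.
Hmgb1: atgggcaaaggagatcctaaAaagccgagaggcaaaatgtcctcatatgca
Gm15387: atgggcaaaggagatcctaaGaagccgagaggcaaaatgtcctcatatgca

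Reads of the coding part that do not cross this base fit both loci equally, so the division of counts between Hmgb1 and Gm15387 is uncertain. The posterior SD of the deposited count was alike for the pair, 219 and 203 for Hmgb1 and 217 and 201 for Gm15387. A second row, Gm21596 on chromosome 2, had 4382 and 4794 counts at 99.5% identity. With all 71 rows added, an addition chosen after the values were seen, the level of Hmgb1 was 4216 and 4503 TPM, above the 4110 and 3544 of Hmgn2 with its own rows. In TPM, which of the 2 is the most abundant member therefore depends on how these rows are treated. In expected counts it does not. Hmgn2 without its rows had 104984 and 88501 counts. Hmgb1 had 50053 and 56076 and its rows 27869 and 28416, which together stay below Hmgn2 in both libraries. Where the reads arose was not tested.

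The other members were touched less. Gm13237, at 98.7% identity to Hmgb2, had 1237 and 999 counts. Gm10182 is identical to the coding part of Hmgn2 over all 273 bases, stop codon included, and had 755 and 1101 counts. Rows like Hmgb2 held 3.33% and 3.27% of the counts of gene and rows, those like Hmgn2 0.845% and 1.28%, those like Hmgb3 0.869% and 0.666%, and those like Hmgn1 0.377% and 0.497%. For the low member Hmgn5 the share was larger, at 19.1% and 9.44%, all of it on Gm11914 at 99.4% identity with 241 and 135 counts. Hmga2 had 1 such row, at 0 counts, and a posterior SD of 0 in both libraries. A coding-gene row, Hmga1b on chromosome 11, is 99.8% identical to Hmga1 and had 292 and 255 counts, against 17565 and 10726 for Hmga1. Its counts come from the division of reads that fit both rows, so they cannot show how certain that division is. The posterior SD was 31.6 and 31.2 counts for both rows. Gm10282, another row annotated as coding, is 99.3% identical to Hmgn2 and had 1423 and 965 counts.

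**Figure D4:**
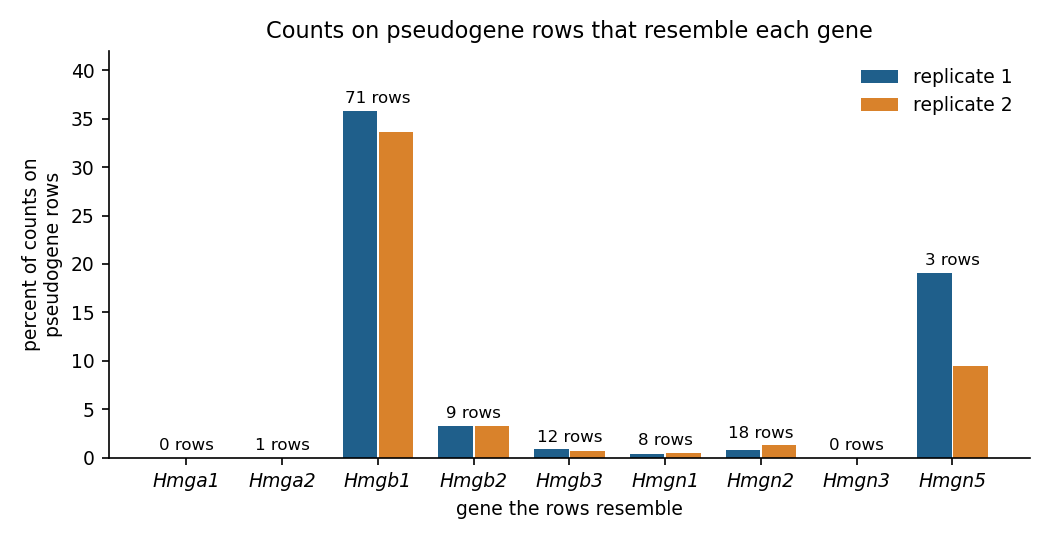
Percent of the counts of each gene plus its pseudogene rows that fell on the rows, as 1 bar per library, with the number of rows above. Hmgb1 stands out at 35.8% and 33.6% over 71 rows, followed by Hmgn5 at 19.1% and 9.44%.

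Overlapping genes limit some members, since the use of strand is not given in the sources used here. The opposite-strand gene AI413582 overlaps the end of Hmga1 and had 1 and 351 counts. Uspl1, with 2859 and 1916 counts, meets Hmgb1 only at the upstream end of its annotated span, from 149184350 to 149184489. The RefSeq promoter windows of Hmgb1 lie elsewhere, at 149051567 to 149051866 and 149053008 to 149053307. The antisense row 1700006J14Rik overlaps Hmga2, with 0 and 69 counts. Their part in the levels above was not tested.

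The let-7 microRNAs pair through their seed, bases 2 to 8, with the letters CTACCTC in the 3′ untranslated region of targets, and Hmga2 is a textbook target. The microRNAs themselves were not analysed here, as the libraries hold long RNA only. Their sequences are shown from RefSeq (GRCm38.p6) with the seed in capitals, for members that share 1 seed.
let-7a-5p: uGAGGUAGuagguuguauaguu
let-7d-5p: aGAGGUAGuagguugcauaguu
miR-98-5p: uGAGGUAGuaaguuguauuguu

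The leading Hmga2 transcript, Hmga2-201, has 4 such letters in 2977 bases of 3′ untranslated region, read on the transcript strand. Among 21037 coding genes, each by its longest such region, 9.02% have at least 1 match and 0.0570% (12 genes) at least 4. Among the 2478 of like length the latter share was 0.121%. The 4 matches begin 21, 1258, 1696 and 2554 bases after the stop codon, at chr10:120364225-120364231, chr10:120362988-120362994, chr10:120362550-120362556 and chr10:120361692-120361698 on the minus strand. Each is shown within 30 bases with the match in capitals.
Hmga2 at 21: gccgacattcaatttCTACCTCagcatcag
Hmga2 at 1258: ccccactcctcaataCTACCTCtgaatgct
Hmga2 at 1696: ctgatttgcaaggaaCTACCTCcacacttc
Hmga2 at 2554: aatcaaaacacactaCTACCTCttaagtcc

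Hmga1-203 has 1 match, 801 bases after the stop codon at chr17:27563292-27563298, and the leading coding transcripts of the other 7 members have none. The matches are a description of the letters. Hmga2, the member with 4, was read almost wholly from the transcript that carries them, and stood at 94.9 and 87.3 TPM.
Hmga1 at 801: tcctctgttcacaaaCTACCTCtggacggt

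**Figure D5:**
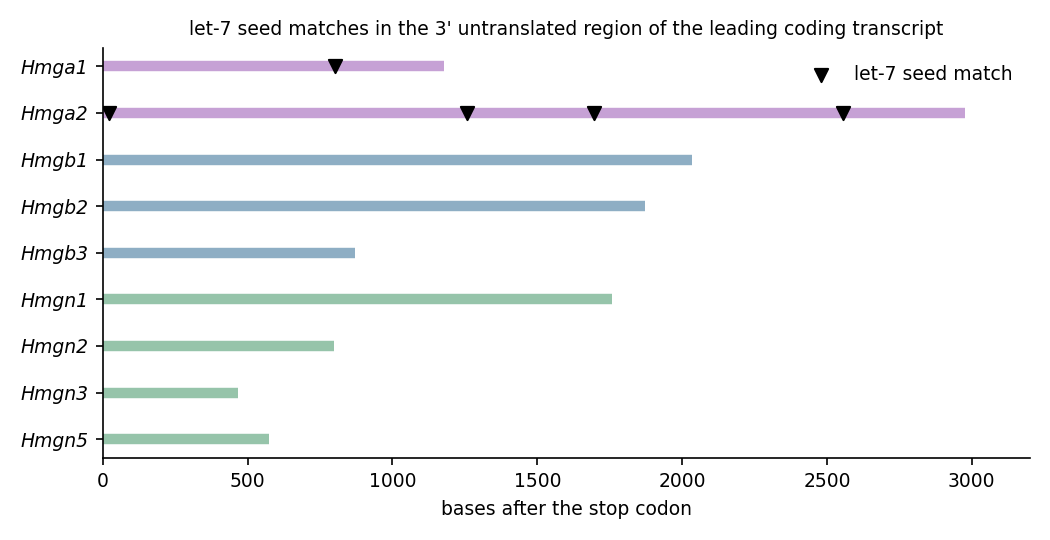
The 3′ untranslated region of the leading coding transcript of each HMG gene, drawn to scale in bases after the stop codon, with a triangle at each let-7 seed match. Hmga2 has 4 matches over 2977 bases, Hmga1 has 1, and the other 7 genes have 0.

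Genes that act around let-7 and Hmga2 were present for 6 of 9 listed, by the same limit. For this and the lists below, the share to set beside is the 30.4% of protein-coding rows that reached the limit. Highest were the RNA-binding protein genes Igf2bp3 at 82.3 and 81.4 TPM, Igf2bp2, a known target of Hmga2, at 83.7 and 53.1, and Igf2bp1 at 32.0 and 59.9. Lin28b, which blocks let-7 maturation, was at 8.12 and 11.6 TPM, and its paralogue Lin28a at 20.1 and 0.160 from 175 and 12 counts. Lin28b and Igf2bp1 have 4 let-7 seed matches each in their longest 3′ untranslated region, as Hmga2 does. Of the 6 listed genes whose mean reached 10 TPM, 3 differed 2-fold, where the background share was 51.3%. They were Lin28a, the exonuclease gene Dis3l2 at 41.5 and 19.6 TPM, and the uridylyltransferase gene Tut4 at 20.3 and 69.4. Cdkn2a, the cell cycle inhibitor locus that Hmga2 is known to hold down in neural stem cells, had 0 counts in both libraries, which allows up to 0.110 CPM (counts per 1000000 gene counts) in replicate 1 and 0.107 in replicate 2 by counting error alone.

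Other genes with an HMG box were detected in both libraries for 10 of 13 listed, but at lower levels than most of the 9. Ssrp1, a subunit of the histone chaperone FACT, was at 282 and 244 TPM, the BAF subunit gene Smarce1 at 138 and 234, and Tfam, which packages mitochondrial DNA, at 102 and 142. All 13 summed to 832 and 897 TPM, less than the gene total of Hmgb1 alone. Of the 10 whose mean reached 10 TPM, Hmgxb4 (21.7 and 54.9 TPM) and Tox (45.4 and 5.24) differed 2-fold, where the background share was 51.3%.

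Linker histones, with which HMGN proteins compete, were detected in both libraries for 3 of 7 and in at least 1 for all 7. H1f0, a replication-independent linker histone gene, led at 103 and 93.6 TPM. Hist1h1e was at 0 and 40.0 TPM, Hist1h1d at 0 and 22.2, and Hist1h1c at 27.8 and 5.68, so 3 of the 4 whose mean reached 10 TPM differed 2-fold. The background share was 51.3%, and 65.0% among genes at 10 to 50 TPM, the range of these 3. Messages of the Hist1h1 genes mostly lack the poly(A) tail. Whether the protocol captured them evenly was not tested.

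Partners of Hmgb2 in the SET complex were detected in both libraries for 4 of 5. Set, a histone chaperone gene, was at 461 and 541 TPM and the DNA repair endonuclease gene Apex1 at 432 and 545. Nme1 was at 320 and 273 and Anp32a at 64.7 and 172. Anp32a was the 1 of these 4 that differed 2-fold, where the background share was 51.3%. Of 7 genes for surface proteins that bind secreted Hmgb1, 3 were detected in both libraries. Cd24a was at 230 and 317 TPM, Thbd at 9.95 and 8.15, and Cxcr4 at 1.55 and 1.67. Ager, Tlr2, Tlr4 and Havcr2 had 0 counts in both, so the best known receptors of secreted Hmgb1 were not detectable at this depth.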

How the data were processed

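RNA of 2 forebrain pools was measured. Per the file headers, the authors deposited expected counts, TPM and FPKM per gene and per transcript, and the percent of a gene's TPM on each transcript. FPKM was not used. Posterior SDs and TPM limits, also deposited by the authors, were taken as a score. The text deposited with the tables names mm10 and annotation M4. For the aligner, the quantification program and strand use: not given in the sources used here. Deposited TPM covers spike-ins, which held 8.44% and 6.56% of it.

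Symbols and coordinates (1-based) came from GENCODE M21 by gene ID, which matched 42462 of 43346 rows. Replicates are separate pools. Detection meant 1 TPM or more in each library. A 2-fold difference was 1 or more in log2(TPM + 1), at a mean of 10 TPM or more. A check on simulated data held counting error only, so it does not cover the wider spread between these libraries. Expected counts were rounded to whole numbers for scaling with edgeR 4.0.16 (TMM) and DESeq2 1.42.0, as alternatives. Pseudogene transcripts were aligned with BLAST 2.17.0. Counts without molecular identifiers give intervals for counting error only, and 3 counts were taken as the limit at 0.

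Members and lists were chosen with earlier results of these data known. All 9 members are named, with transcripts of at least 10% in a library, the 3 highest genes of each list and those differing 2-fold, and the 3 pseudogene rows of most counts. Other transcripts and rows, Hmga1b and Gm10282 among them, were chosen after their values were seen. Tut4 and Tut7 were listed by older symbols. Protein sequences were not used. A result on the forebrain marker list is not reported here.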

Additional observations from a re-analysis of the deposited data

How the results depend on the processing

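The alternatives were CPM, TPM rescaled over gene rows, posterior mean TPM, TMM, DESeq2 size factors, a pseudocount of 0.1 and no filter on level. Under each of these, 0 of the 9 genes differed 2-fold, and the median difference ran from -0.29 (TMM) to -0.21. The lowest mean of the 9 was 28.4 TPM (Hmgn5), so leaving out the filter could not change either value. The DESeq2 size factors were 1 and 1, so that setting compared unscaled counts. Over the 7680 genes compared, the median lay between -0.02 and 0.02. The number of genes higher in replicate 1 was 6 or 7, as Hmgb3 changed sign. Under the stricter detection limits all 9 genes passed. The mean summed TPM of 8852 became 9576 when spike-ins and numbered rows were left out of the total and 11188 when the pseudogene rows were added, a setting chosen after seeing the data. It ran from 8398 without replicate 1 to 9306 without replicate 2. The count of members with the same leading transcript was 8 of 9, single-transcript genes included, and 7 with protein-coding transcripts alone or without retained introns (the latter chosen after seeing the data), where Hmgb1 differed as well. Of the 7 members with more than 1 transcript that leaves 5 in both cases, beside 75.5% and 69.5% over all such genes. At 90% identity the pseudogene rows fell from 122 to 92 and their summed counts over both libraries from 61715 to 61706. No paired analysis was possible because there is one group. With 2 libraries made from a single-cell amount of RNA, low genes such as Lin28a (175 and 12 counts) are less certain than the HMG genes, of which Hmgn5 had the fewest counts.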

Other observations

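RefSeq promoter windows (GRCm38.p6, 300 bases around a transcription start) were found for 8 of the 9 HMG genes, 10 windows in all, with none for Hmgn3. They were rich in CG dinucleotides, with a median of 24 per window against 7 over all 32851 windows, from 12 for Hmga2 to 45 for a window of Hmgb1. The TATA box letters TATAAA, on either strand, were in none of the 10 windows and in 13.6% of all. The CCAAT box letters CCAAT, on either strand, were in 6 of 10 and in 37.4% of all. They occurred 4 times in Hmgb2 and 3 times each in Hmgb3 and in a window of Hmgb1, and not in Hmga1 or Hmga2. The GC box letters GGGCGG, on either strand, were in 8 of 10 and in 35.7% of all. Hmga1 and Hmgb1 gave 2 windows each, and those of Hmga1 overlap, so the 10 windows are not independent. These counts describe letters in a fixed window and say nothing of which factors bind there.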
